A study of Homo sapiens with 36 samples.

Results

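A549 lung adenocarcinoma cells carried 3799 sites at which the AP-1 subunits JunB and Jun had a peak and the third Jun-family subunit, JunD, had none. The peak lists of JunB, Jun and JunD in A549 were merged into 43827 regions. A region was kept if it held a JunB and a Jun peak but no JunD peak, lay more than 1 kb from any annotated transcription start site, and had no Jun-family peak of the non-cancerous cells within 1 kb. The 3799 pair sites made up 8.67% of all merged regions (95% Wilson interval, 8.41 to 8.94). Before the distances were applied, 13373 regions held the pair, and 10235 of these were distal to start sites. The peaks themselves chose the sites, so that presence and strength of JunB, Jun and JunD are described below without a test.

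The data came from chromatin immunoprecipitation followed by sequencing (ChIP-seq) in cultures of A549 and of B2B (BEAS-2B), an immortalized bronchial epithelial cell line, for which the labels give no treatment. Each target had 2 replicates per line (CTCF and Rad21 in B2B only), which the authors merged before they called peaks. Every list was therefore a pool of 2 libraries, no value had a replicate error, and the intervals below cover counting error over sites only. Nearby sites are not independent of each other, and the depth of the libraries was not given in the sources used here. A start-site peak of H3K4me3 was found in A549 at 4 of 5 epithelial markers (EPCAM, CDH1, KRT8 and KRT18, but not KRT19) and at 5 of 6 alveolar or endoderm markers, of which SFTPB lacked one. In B2B it was found at the same number of epithelial markers and at 2 of 6 alveolar or endoderm markers. Of 3 basal airway markers, TP63 had the peak in A549 and not in B2B, and KRT5 and KRT14 lacked it in both lines. The mesenchymal markers VIM, CDH2 and ZEB1 had the peak in both lines.

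AP-1 is a dimer of basic leucine zipper proteins. Jun-family members pair with each other or with Fos-family members, and the dimers bind a short palindromic element in enhancers of genes for growth, stress and wound responses. Jun is the classical activator, JunB and JunD can activate or restrain the same genes, and all of them are downstream of RAS and MAP kinase signalling. Acetylation of histone H3 at lysine 27 (H3K27ac) and the Mediator subunit Med1 mark active enhancers, whereas trimethylation at lysine 4 (H3K4me3) and RNA polymerase II (pol II) mark promoters and are also found at transcribed enhancers. CTCF and the cohesin subunit Rad21 mark insulators and loop anchors.

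The sequences under the JunB summits show the element directly. The first set holds windows of 101 bp around the JunB summit at 3 of the 10 pair sites with the highest summed JunB and Jun fold enrichment. Of these 10 sites, 4 contained the element TGACTCA or its reverse complement TGAGTCA (in capitals) in this window. The sequence is the hg38 reference, and each site is named by the nearest protein-coding start site.
SLC18A2 (chr10:117221287-117221387, plus strand): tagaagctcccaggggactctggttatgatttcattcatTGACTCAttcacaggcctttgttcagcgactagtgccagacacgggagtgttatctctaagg
LMO3 (chr12:17305158-17305258, plus strand): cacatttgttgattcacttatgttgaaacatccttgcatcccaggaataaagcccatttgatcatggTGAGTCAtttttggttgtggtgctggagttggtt
DHX35 (chr20:39190810-39190910, plus strand): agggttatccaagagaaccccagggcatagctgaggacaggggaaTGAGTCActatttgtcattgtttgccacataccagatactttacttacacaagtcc

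The other 6 of the 10 strongest pair sites had no exact element in the window. The windows of a pair of them, in introns of ROS1 and CEMIP2, are shown as examples. Their Jun folds were 39.6 and 46.1, and the site nearest to ANKRD50, not shown, had 42.6. The ROS1 window holds TGAGTAA, which differs from the element by 1 base.
ROS1 (chr6:117389858-117389958, plus strand): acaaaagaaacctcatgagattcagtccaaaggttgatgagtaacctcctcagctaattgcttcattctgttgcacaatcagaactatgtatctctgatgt
CEMIP2 (chr9:71742471-71742571, plus strand): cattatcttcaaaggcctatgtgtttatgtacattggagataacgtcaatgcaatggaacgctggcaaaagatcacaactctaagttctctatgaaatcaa

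The next set holds pair sites that also had an A549 H3K27ac and an A549 Med1 peak. Of the 10 such sites on chromosomes 1 to 12 with the highest summed fold, 4 held the element. The windows shown are 3 of these 4, chosen because they hold it, and the window near ID2 held 2 copies.
GPR31 (chr6:167204081-167204181, plus strand): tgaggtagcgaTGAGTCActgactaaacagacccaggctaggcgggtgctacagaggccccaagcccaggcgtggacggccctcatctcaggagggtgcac
TENM3 (chr4:182175920-182176020, plus strand): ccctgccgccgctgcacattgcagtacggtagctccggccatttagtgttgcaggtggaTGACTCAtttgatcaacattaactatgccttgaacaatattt
ID2 (chr2:8662643-8662743, plus strand): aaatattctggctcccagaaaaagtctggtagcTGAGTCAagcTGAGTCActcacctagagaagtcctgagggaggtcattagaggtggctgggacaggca

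For contrast, 2 windows come from just outside the rule. They belong to sites with JunB, Jun and JunD at which the JunD peak was among the 6 weakest. Of these 6 sites, 3 held the element, and both windows shown were chosen from those 3.
AGBL1 (chr15:86556135-86556235, plus strand): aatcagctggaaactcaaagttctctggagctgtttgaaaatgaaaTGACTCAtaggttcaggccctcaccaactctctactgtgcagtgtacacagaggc
SMCHD1 (chr18:2658296-2658396, plus strand): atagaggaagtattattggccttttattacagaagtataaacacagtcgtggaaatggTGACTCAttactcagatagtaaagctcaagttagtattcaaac

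The 10 strongest pair sites lay between 4.32 kb (TMEM200C) and 694 kb (LMO3) from a protein-coding start site. The site with the highest summed fold was 19.5 kb from a start site of SLC18A2, which encodes a vesicular monoamine transporter. Its JunB fold enrichment was 18.4 (55 reads at the summit) and its Jun fold enrichment 42.9 (85 reads), and the summits lay 4 bp apart. The site nearest to LMO3, 694 kb away between genes, had the highest JunB value of the 10, a fold of 26.6 with 80 reads, and a Jun fold of 33.6. The site in an intron of ROS1, a receptor tyrosine kinase gene, had folds of 20.01 for JunB and 39.6 for Jun. In an intron of CEMIP2, a Jun fold of 46.1 stood beside a JunB fold of 7.21, the most unequal pair of the 10, and the start of CEMIP2 was 11.3 kb away. Over the 10 sites the summed fold ranged from 49.5 to 61.3, and 5 lay in introns and 5 between genes.

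Of these 10 sites, 8 lay on chromosomes 1 to 12, to which the comparisons of H3K27ac, Med1 and pol II were limited because several lists of these marks end early. Among the 8, A549 pol II overlapped 4, H3K27ac overlapped only the site near SLC18A2, and Med1 overlapped only the site in CEMIP2. That site was also the only one of the 10 with A549 H3K4me3. None of the 8 overlapped a B2B peak of H3K27ac, Med1 or pol II, and none of the 10 a B2B peak of H3K4me3. The 10 strongest pair sites with both H3K27ac and Med1 also all had A549 pol II, and 4 of them had H3K4me3. Their summed fold ran from 35.4 to 43.7, below that of every site in the first group. Near GPR31 the folds were 18.7 for JunB and 25.1 for Jun. Near ID2, which encodes an inhibitor of helix-loop-helix factors, they were 13.6 and 21.8, with the site 16.0 kb from the start. The others lay in introns of ACOXL, TENM3, JAK1 and P2RX3 and nearest to PRAG1, DDX1, ADCY8 and EDN1, the last the gene of the peptide endothelin. In B2B only the site in JAK1, a cytokine receptor kinase gene, overlapped any of the marks, a pol II peak.

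Pair sites had weaker JunB and Jun peaks than the 939 sites chosen by the same distances that also held JunD (trio sites). The median fold enrichment of JunB was 6.80 at pair sites (quartiles 5.52 and 8.83) and 11.6 at trio sites, with median summit pileups of 24 and 44 reads. For Jun the medians were 10.02 (quartiles 7.31 and 14.5) and 24.6, with 23 and 62 reads. The JunD peaks of the trio sites had a median of 21 reads and none had fewer than 11. A JunD signal under this level would thus have gone unlisted. The A549 JunD list was also the shortest, with 9639 peaks against 28068 for JunB and 35602 for Jun. The part of list length in the absence of JunD at pair sites was not tested. Sites with JunB alone (n = 2551) had a median JunB fold of 5.47, and sites with Jun alone (n = 6600) a median Jun fold of 7.17. Pair sites thus lay between single and trio sites in the strength of both proteins, and the ranges of all sets overlapped.

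**Figure D1:**
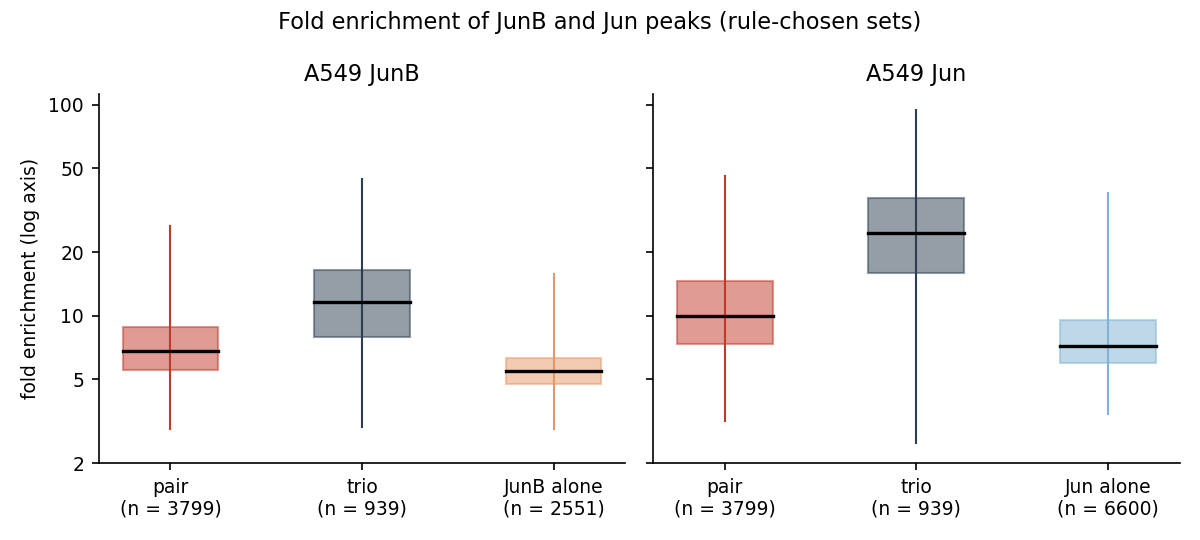
Fold enrichment of A549 JunB peaks (left) and Jun peaks (right) on a log axis for pair, trio and single-protein sites. Lines span lowest to highest site, boxes the quartiles and black bars the medians, which for Jun are 10.02 at pair sites and 24.6 at trio sites.

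Within a pair site the peaks of both proteins nearly coincided. The summits of JunB and Jun lay a median of 25 bp apart, within 50 bp at 79.5% of the sites and within 100 bp at 94.9%. A single JunB peak and a single Jun peak made up 99.2% of the sites, whose median width was 300 bp against 438 bp for trio sites. Jun had the higher fold at 80.3% of the pair sites, although folds of separate lists are not on a common scale. Across pair sites the folds of JunB and Jun were weakly related (Spearman's rho 0.36 over 3799 sites that share the same 2 lists, given as a description).

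To ask whether the pair marked active enhancers in A549, each site was scored for overlap with a peak of the 4 marks, which the rule had not used. Of 2725 pair sites on chromosomes 1 to 12, 428 overlapped an H3K27ac peak, or 15.7% (14.4 to 17.1). The background was 13.7% of all distal A549 Jun-family regions and 11.9% of those without a B2B Jun-family peak within 1 kb. Med1 overlapped 377 of the sites, or 13.8% (12.6 to 15.2), against a background of 22.4% and 16.8%. Pol II overlapped 840, or 30.8% (29.1 to 32.6), against 28.6% and 23.5%. H3K4me3, scored on all chromosomes, overlapped 574 of 3799, or 15.1% (14.0 to 16.3), against 13.7% and 12.9%. Pol II was thus the most frequent mark, and Med1 was the only one below both backgrounds. Both backgrounds include JunB-alone sites. On all chromosomes, 344 of these lay in bins of 1 Mb with no annotated start site, against 2 pair sites. The Med1 backgrounds without such bins are not given here, so the shortfall may depend on them.

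Each mark was less frequent at pair sites than at trio sites. H3K27ac overlapped 32.3% of 647 trio sites, a difference of −16.6 percentage points (95% Newcombe interval, −20.5 to −12.8). Med1 overlapped 46.7% of them, a difference of −32.8 points (−36.9 to −28.8). For pol II the trio share was 62.9% and the difference −32.1 points (−36.1 to −27.9). For H3K4me3 it was 33.4% of 939 sites and the difference −18.3 points (−21.6 to −15.2). All 4 intervals left out 0. Where a mark was scored only within 100 bp of the JunB summit, so that the wider trio sites had no advantage, the differences were −13.0, −31.8, −31.2 and −14.2 points in the same order.

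**Figure D2:**
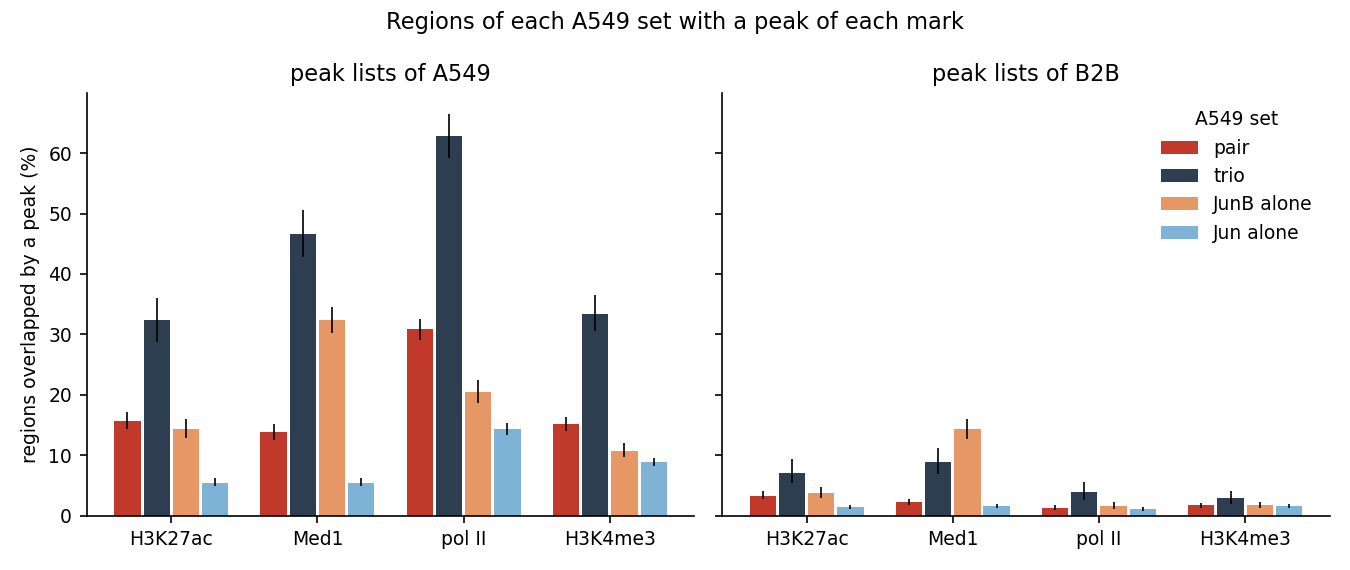
Share of pair, trio, JunB-alone and Jun-alone sites of A549 (bars, in percent) overlapped by a peak of each mark in the lists of A549 (left) and B2B (right), with 95% Wilson intervals. In A549 pair sites stand at 15.7% for H3K27ac and 13.8% for Med1 against 32.3% and 46.7% for trio sites, and in B2B all pair shares are 3.30% or less.

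Because trio sites also had stronger JunB and Jun peaks, the shares were compared within quartiles of fold enrichment over pair and trio sites together. In each of the 4 JunB quartiles and each of the 4 Jun quartiles, pair sites had the lower share of each mark. In the highest JunB quartile, H3K27ac overlapped 21.996% of 441 pair sites and 31.3% of 409 trio sites, a difference of −9.30 points (−15.2 to −3.36). In the highest Jun quartile Med1 overlapped 16.7% of 418 pair sites and 41.2% of 473 trio sites (−24.5 points, −30.0 to −18.7). At pair sites the share with Med1 moved little with Jun strength, from 13.4% in the lowest to 16.7% in the highest quartile, whereas at trio sites it fell from 89.6% of 48 to 41.2%.

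Standardised to the JunB strength of the pair sites, the differences were −22.2 points for H3K27ac, −37.6 for Med1, −33.2 for pol II and −21.0 for H3K4me3. Standardised to their Jun strength they were −39.1, −54.0, −43.8 and −29.1 points. The second Jun quartile held only 16 trio sites on chromosomes 1 to 12, and without that quartile, a check added with the results known, the 4 differences were −31.5, −48.1, −40.5 and −20.7 points. The lowest Jun quartile, kept in both, held only 48 trio sites there. In the highest Jun quartile, with 473 trio sites (640 for H3K4me3), the differences were −13.6, −24.5, −24.7 and −17.5 points. Each of these was smaller in size than the unstandardised difference given above.

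**Figure D3:**
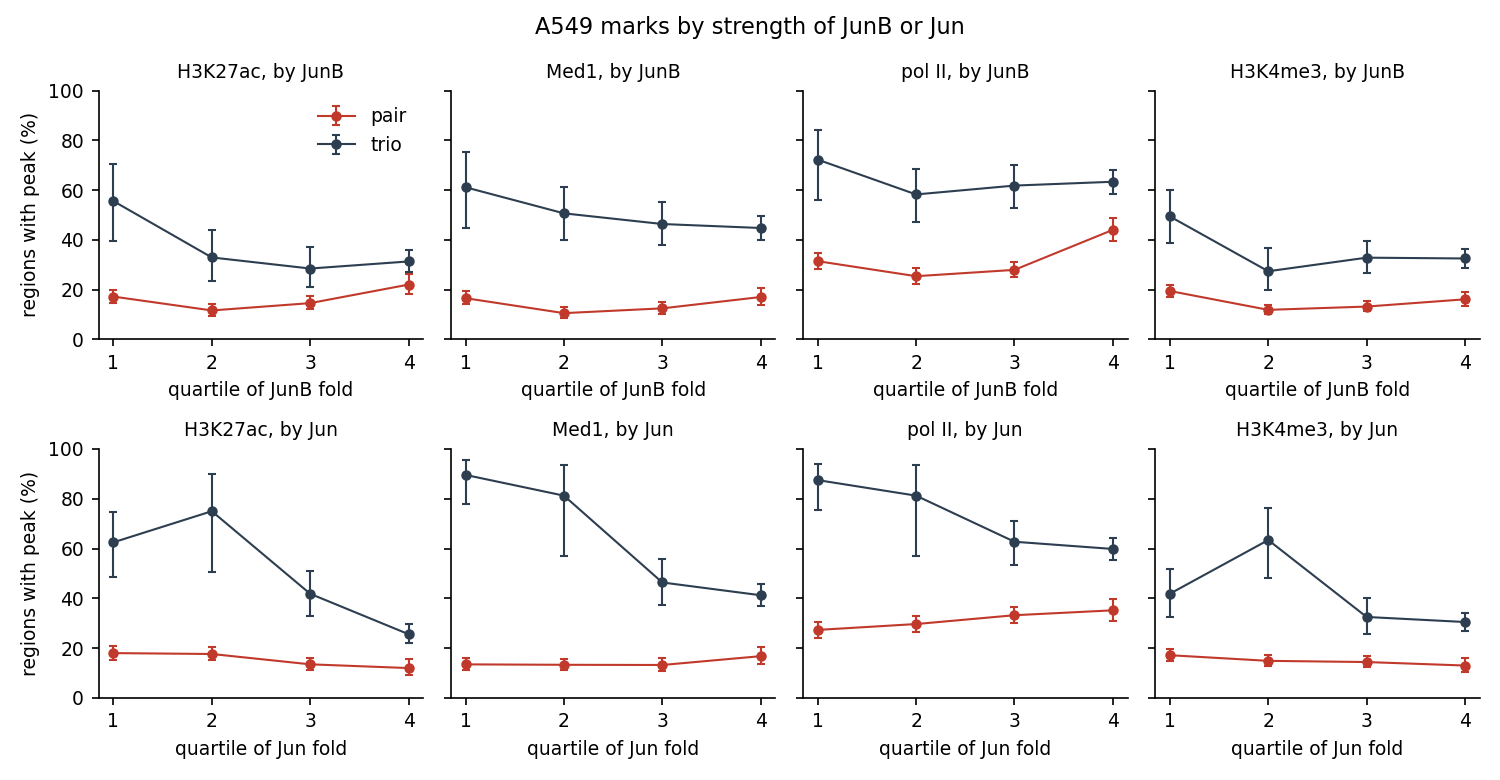
Share of pair and trio sites (in percent, with 95% Wilson intervals) overlapped by each A549 mark in quartiles of JunB fold (top row) and of Jun fold (bottom row), from weakest (1) to strongest (4). The pair line lies below the trio line in every panel and quartile, as for Med1 at 16.7% against 41.2% in the strongest Jun quartile.

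Most pair sites carried no mark at all in these lists. None of the 4 A549 marks overlapped 1679 of the 2725 sites, or 61.6% (59.8 to 63.4). The background was 59.2% of all distal A549 Jun-family regions and 66.4% of those without a B2B Jun-family peak within 1 kb, so that the pair share lay between both. Trio sites were without a mark at 30.0%, JunB-alone sites at 53.4% and Jun-alone sites at 81.6%. All 4 marks were present at 114 pair sites, or 4.18% (backgrounds 4.21% and 4%), against 16.7% of trio sites. H3K27ac with Med1, the usual sign of an active enhancer, was found at 216 sites, or 7.93% (6.97 to 9.001), close to the backgrounds of 7.86% and 6.79%. Trio sites had this combination at 27.4%, JunB-alone sites at 6.80% and Jun-alone sites at 2.70%. H3K27ac without Med1 was about as frequent at pair sites, at 7.78%, whereas trio sites had it at 4.95%. Pol II without any of the other marks was found at 10.5% of pair sites and 10.8% of trio sites. The H3K27ac peaks that overlapped pair sites had a median fold of 14.4 (trio 22.2, whole list 10.8), and the Med1 peaks 6.55 (trio 8.78, whole list 6.72). For pol II the medians were 8.67 at pair and 13.5 at trio sites, and for H3K4me3 they were close, at 6.44 and 6.68.

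The pair was next compared with sites that held only one of its members. Against Jun-alone sites, of which 5.48% of 4708 had H3K27ac and the same share had Med1, pair sites were higher in every mark. The differences were 10.2 points for H3K27ac (8.74 to 11.8), 8.35 for Med1 (6.93 to 9.84), 16.6 for pol II (14.6 to 18.6) and 6.29 for H3K4me3 (4.98 to 7.64). Against JunB-alone sites the marks went different ways. Pol II was 10.4 points higher at pair sites (7.80 to 12.9) and H3K4me3 4.33 points higher (2.65 to 5.97), while Med1 was 18.5 points lower (−21.1 to −16.0 as a signed interval). For H3K27ac the difference was 1.38 points, and its interval from −0.774 to 3.48 did not leave out 0. With Jun-family peaks at a −log10 q of at least 5 it was 4.11 points (2.06 to 6.10), and with marks counted within 1 kb 5.45 points (2.92 to 7.93), so that the call depended on these settings.

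JunB-alone sites included 344 in bins of 1 Mb with no annotated start site, against 2 pair sites and 16 trio sites. Without such bins the difference from JunB-alone sites was −7.42 points for Med1 (−9.92 to −5.00), 2.66 for H3K4me3 and −1.61 for H3K27ac (−4.02 to 0.722). Med1 thus stayed lower at pair sites, by less, and H3K27ac changed sign with an interval that still included 0.

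At the same pair sites the B2B lists held few peaks. H3K27ac of B2B overlapped 3.30% of them, Med1 2.202%, pol II 1.21% and H3K4me3 1.68%, against backgrounds of 7.49%, 12.9%, 11.8% and 3.52% of all distal A549 Jun-family regions. The rule had removed sites with a B2B Jun-family peak, and the background without such sites was 2.94%, 5.16%, 1.48% and 1.88%. H3K27ac was found in A549 only at 338 sites and in B2B only at 0, where a count of 0 allows up to 3. For Med1, 331 sites were marked in A549 only and 14 in B2B only, for pol II 809 and 2, and for H3K4me3 511 and 1. Because the sites were kept for A549 peaks and for the absence of B2B peaks, a higher A549 share follows in part from the rule, and the gaps are given as a description. The A549 share was higher by 12.4 points for H3K27ac, against a gap of 8.995 points over all distal A549 regions without B2B Jun-family peaks. For Med1 the gap was 11.6 points, and over those regions it was 11.7 points. For pol II it was 29.6 against 22.002 points, and for H3K4me3 13.4 against 10.98 points. The A549 pol II list held 45938 peaks and that of B2B 25234, and the part of list length in the pol II gap was not tested.

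B2B CTCF overlapped 233 of 3799 pair sites, or 6.13% (5.41 to 6.94), against a background of 22.2% of all distal A549 Jun-family regions and 7.25% of those without B2B Jun-family peaks. Trio sites had 10.2%, a difference of −4.09 points (−6.31 to −2.14). Rad21 overlapped 5.03% of pair sites, against backgrounds of 8.15% and 5.60%, and 9.80% of trio sites (−4.77 points, −6.94 to −2.88). Both were lower at pair sites. With Jun-family peaks at a −log10 q of at least 5 the differences were −2.39 and −3.06 points, and standardised to JunB strength they were −8.44 and −10.5 points. The samples held CTCF and Rad21 for B2B only, so neither was scored in A549.

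The AP-1 element was more frequent at pair sites than in any of the compared sets. TGACTCA or its reverse complement lay within 50 bp of the JunB summit at 2185 of 3799 pair sites, or 57.5% (55.9 to 59.1). The background was 44.5% of all distal A549 Jun-family regions, and flanking windows 2 kb upstream and downstream of the pair summits held it at 1.54%. Trio sites had it at 48.3%, a difference of 9.17 points (5.60 to 12.7). JunB-alone sites had it at 38.1% (19.5 points lower than pair sites) and Jun-alone sites at 31.8% (25.7 points lower). Around the Jun summit the share at pair sites was 57.5% as well, and anywhere in the merged region it was 67.1% against 54.4% at trio sites. The median distance of the element from the summit was 15 bp, and 3.79% of the windows held 2 or more copies. Within 25 bp of the summit, a narrower window, the difference from trio sites was 4.42 points (0.942 to 7.79).

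The share of pair sites with the element was higher in each higher quartile of JunB strength and lower in each higher quartile of Jun strength. Over JunB quartiles it was 42.0%, 55.9%, 66.4% and 72.5% at pair sites. Over Jun quartiles it was 59.8%, 59.2%, 57.1% and 50.3%. Trio sites had 9.88% in the lowest JunB quartile (n = 81) and 64.8% in the highest, and 3.06% in the lowest Jun quartile (n = 98) and 56.4% in the highest. In the highest Jun quartile the order was thus the other way round, with pair sites 6.13 points lower (−11.8 to −0.441). Standardised over JunB quartiles the difference was 29.7 points (25.97 to 33.4). Over Jun quartiles it was 29.4 points (24.9 to 33.9), and 24.0 points without the second quartile. These values rest on the lowest Jun quartiles, where trio sites were few (98 in the first and 41 in the second). In the third Jun quartile, with 160 trio sites, the difference was 5.27 points, and its interval included 0 (−2.93 to 13.5). The highest, where pair sites were lower, held 640 trio sites.

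**Figure D4:**
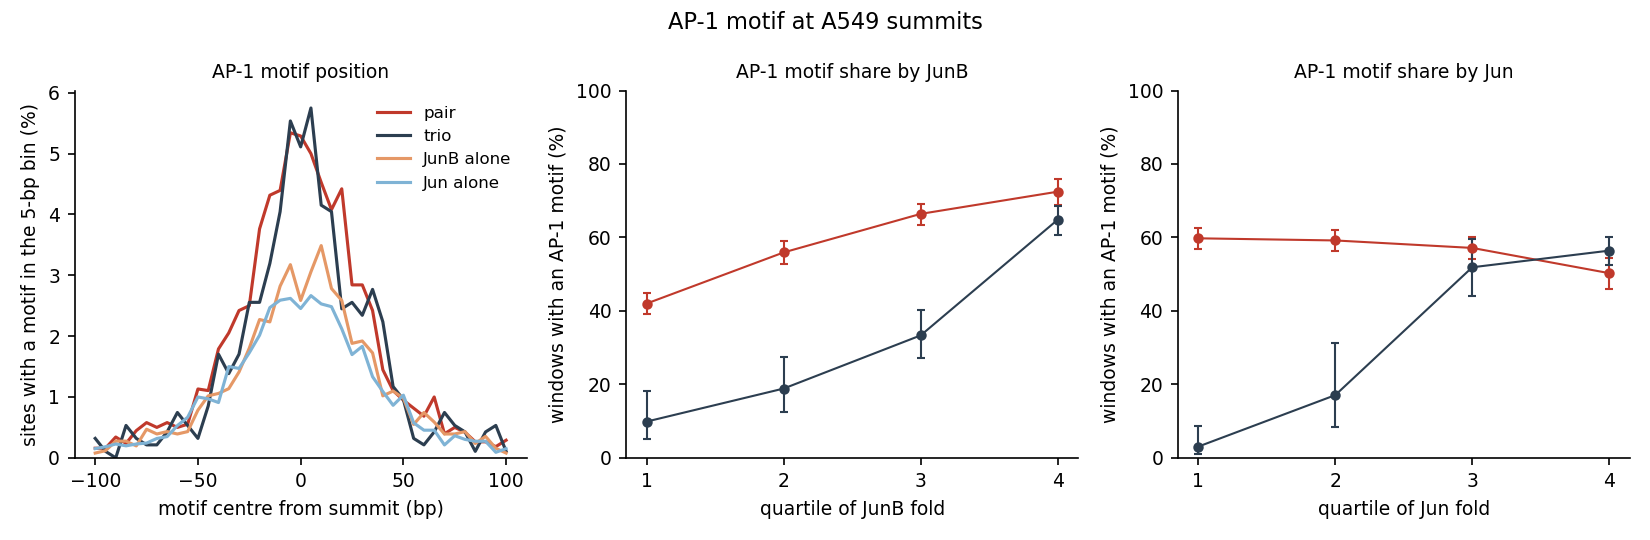
Position of the AP-1 element (TGACTCA on either strand) relative to the summit in bins of 5 bp, in percent of sites (left), and share of pair and trio windows with the element by quartile of JunB fold (middle) and Jun fold (right), with 95% Wilson intervals. The element is centred on the summit in all sets, and the pair and trio lines cross in the strongest Jun quartile, at 50.3% and 56.4%.

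Pair sites with the element carried fewer marks than those without it. H3K27ac overlapped 13.6% of 1563 sites with the element and 18.6% of 1162 without (−5.02 points, −7.86 to −2.24). For Med1 the shares were 8.83% and 20.6% (−11.7 points, −14.5 to −9.05), for pol II 23.2% and 41.05% (−17.8 points, −21.3 to −14.3), and for H3K4me3 10.9% and 20.8% (−9.82 points, −12.2 to −7.46). All 4 intervals left out 0.

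Many of the remaining sites held a near match. Of 1614 pair windows without the exact element, 64.9% held a heptamer that differed from it by 1 base, against 26.2% of the flanking windows without it. The most frequent was TGAATCA (reverse complement TGATTCA), in 23.3% against 1.43% of the flanks, followed by TGACTAA in 16.0% against 1.15% and TGAGTAA in 9.29% against 1.27%. Exact and near matches together covered 85.1% of pair windows (83.9 to 86.2) and 27.4% of flanks. The same count gave 78.8% at trio, 70.3% at Jun-alone and 55.4% at JunB-alone sites.

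Other elements were searched by their letters on both strands in the same windows. The background was all distal A549 Jun-family regions, those near B2B Jun-family peaks included. The cyclic AMP response element TGACGTCA was found at 0.342% of pair sites (background 0.491%, flanks 0.0526%). The NRF2-Maf element TGACNNNGC was found at 11.4% (background 8.52%, flanks 3.57%), 2.48 points above trio sites (0.257 to 4.44). It can overlap the AP-1 element, and it did so at 5.37% of pair sites, leaving 6.05% (5.34 to 6.86) with a match apart from it. At trio sites 5.11% (3.88 to 6.71) had such a match, an interval that overlaps that of the pair sites. The C/EBP element TTGCNNAA was found at 10.8% (background 9.71%, flanks 5.09%), and the difference of −1.88 points from trio sites had an interval from −4.35 to 0.347. The forkhead element TGTTTAC was found at 5.76% (background 4.86%, flanks 1.41%), a difference of −2.22 points from trio sites (−4.26 to −0.468). GATA letters (AGATAA) were found at 7.08% (background 5.8%, flanks 6.36%). The TEAD letters CATTCC were found at 7.66% (background 11.9%, flanks 5.17%) and glucocorticoid receptor letters (ACANNNTGT) at 3.90% (background 4.55%, flanks 2.54%). At trio sites the TEAD share was 7.56%, and the difference of 0.0987 points had an interval from −1.94 to 1.86. The RUNX letters TGTGGTT were found at 1.21% of pair windows (background 1.96%, flanks 2.08%), below both. The ETS letters CCGGAA were found at 0.869% (background 1.1%, flanks 0.803%). The letters GGGCGG of SP and KLF factors were found at 2.53% (background 2.4%, flanks 2.45%). Trio sites had them at 4.69%, a difference of −2.16 points (−3.77 to −0.860). A match is a run of letters and not a measured binding site.

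Pair sites lay mostly in introns. The JunB summit fell in an intron at 59.5% of the sites, between genes at 36.6% and in an exon at 3.87% (GENCODE release 44, hg38). The median distance to a protein-coding start site was 27.1 kb, against 30.4 kb for trio sites, 56.1 kb for JunB-alone and 26.3 kb for Jun-alone sites. Another pair site lay within 12.5 kb of 15.03% of them and within 50 kb of 31.1%. The share of pair sites among distal A549 regions without B2B Jun-family peaks, 26.3% in all, ran from 14.4% on chromosome 13 to 31.1% on chromosome 19, with chromosome Y at 2 of 44. The nearest protein-coding gene had a start-site H3K4me3 peak in A549 only at 22.4% of pair sites (21.1 to 23.7). Over the trio, JunB-alone and Jun-alone sites together the share was 18.2% (17.4 to 18.9). Among all protein-coding genes it was 12.3%, but there each gene counts once and not once per site. Trio sites had 21.5% (a difference of 0.862 points, −2.17 to 3.71), while JunB-alone and Jun-alone sites had 17.9% and 17.8% (4.50 and 4.57 points lower than pair sites, with intervals that left out 0).

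Named genes were ranked by the number of pair sites within 100 kb of a start site. Of 20033 protein-coding genes, 27.4% had at least 1 such site and 1 gene had 9. This was PDE4D, a cyclic AMP phosphodiesterase gene that spans 1553 kb, which also had 6 trio sites and 23 Jun-alone sites. PLEKHM3 had 8, and the neighbouring CCNYL1 and FZD5, the latter a Wnt receptor gene, had 7 each. Because these 3 genes lie side by side on chromosome 2, they share most of the sites. ALDH1A1, a retinaldehyde dehydrogenase gene, had 7 pair sites, 1 trio site and 12 Jun-alone sites. Its start-site H3K4me3 peak was found in A549 and not in B2B. Of its pair sites, 6 lay 82.5 to 150.2 kb downstream of its outermost start and 1 lay upstream of it (at −99.4 kb). ANK3, COL22A1 and RERG also had 7 each, as did IZUMO2, MYH14 and ZNF473, which share one cluster on chromosome 19. Jun-alone sites within 100 kb numbered 9 for ANK3, 6 each for IZUMO2 and ZNF473, 5 for MYH14 and 3 for PLEKHM3. They numbered 2 for COL22A1, 1 for RERG and 0 for CCNYL1 and FZD5. The start-site H3K4me3 peak was found in A549 alone at COL22A1, MYH14 and RERG.

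The genes of 12 themed lists and of the oncogene list of the study were then counted. The median gene of the genome had 0 pair sites, and 27.4% of all protein-coding genes had at least 1 within 100 kb. Of 20 NRF2 target genes, 13 had a pair site within 100 kb (65.0%, 43.3 to 81.9), with a median of 1. AKR1B10, AKR1C2 and AKR1C3, which encode aldo-keto reductases, had 3 each, and the neighbours AKR1C2 and AKR1C3 can share theirs. Of 18 integrin and laminin genes 11 had a site, led by ITGAV, ITGB5 and LAMA5 with 2 each. Of 16 epithelial genes 9 had one. CDH1, the E-cadherin gene, had 4, and the neighbouring keratin genes KRT8 and KRT18 had 3 each. Of 18 lung and endoderm regulators 10 had one, with 3 near CEBPA and 2 each near CEBPB and ELF3, the last an epithelial ETS factor gene.

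Of 15 YAP-TEAD target genes, 7 had a pair site, with 2 each near AMOTL1 and WWTR1 and 1 near AMOTL2. Among 14 MAPK feedback genes 6 had one, with 3 near DUSP1 and 2 near DUSP5, both MAP kinase phosphatase genes, and 1 near DUSP10. Among 15 AP-1 subunit genes 6 had one. FOSB had 4 pair and 2 trio sites, while ATF3 and JUNB had 1 pair site each. Of 16 interleukin and chemokine genes 6 had one, and CXCL2, CXCL3 and CXCL5, which lie together on chromosome 4, had 1 each. Of 14 ERBB receptor and ligand genes 5 had one, with 3 sites near the ligand gene NRG1, 2 near the receptor gene EGFR and 1 near EGF. Of 16 matrix protease genes 5 had one, with 2 near MMP7 and 1 each near MMP9 and PLAU. The shares of the lists from YAP-TEAD targets to matrix proteases ran from 31.25% (matrix proteases) to 46.7% (YAP-TEAD targets). The interval of each of these lists included the 27.4% of all protein-coding genes.

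Among 14 aldehyde and xenobiotic enzyme genes 4 had a pair site (28.6%, 11.7 to 54.6), about the share of all genes. These 4 counted 17 sites, of which ALDH1A1 had 7, CYP24A1 5 and UGT1A6 3. Mesenchymal genes had the lowest share of the lists, 4 of 16 (25%, 10.2 to 49.5), an interval that includes the 27.4% of all genes. There were 4 sites near TGFBI, 2 near ZEB2 and 1 near SPARC. Of 611 oncogenes 205 had a site (33.6%, 29.9 to 37.4), against 27.4% of all genes. Among those with a start-site H3K4me3 peak in A549, 34.9% of 556 oncogenes had one, against 29.2% of all such genes. JAK3 had 6, and the neighbours BCL3 and CBLC had 5 each. The lists were short and partly made of neighbours, and they were described by counts without a test.

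**Figure D5:**
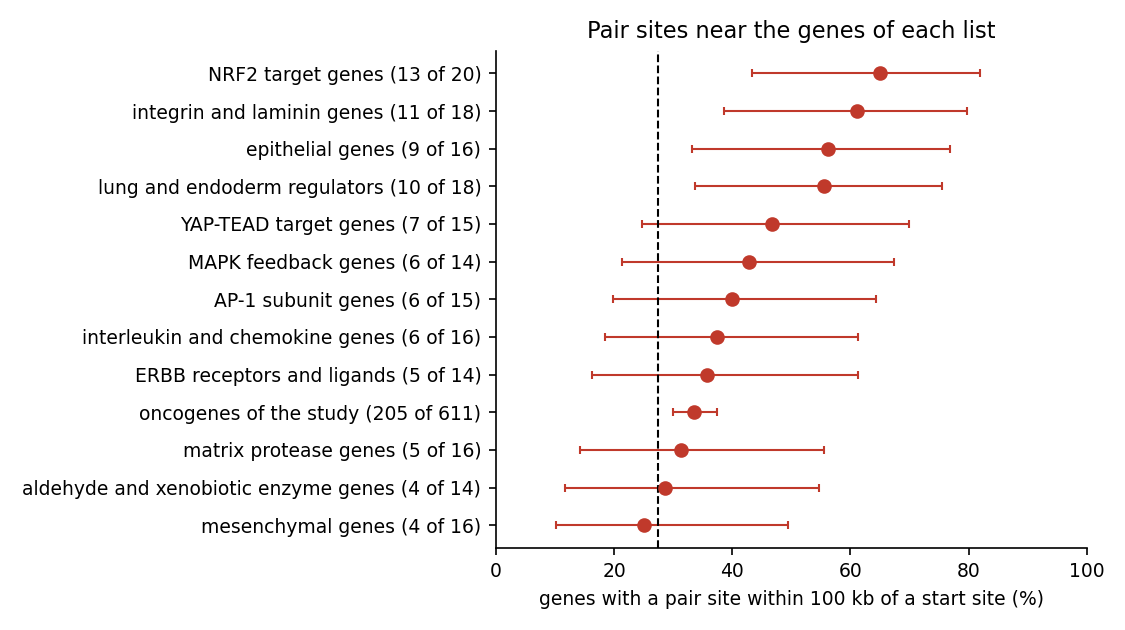
Share of the genes of each list with a pair site within 100 kb of a start site (points, in percent, with 95% Wilson intervals) and the share over all protein-coding genes, 27.4% (dashed line). NRF2 targets stand highest at 65.0% (13 of 20) and mesenchymal genes lowest at 4 of 16 (25%), with an interval that includes 27.4%.

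The values at the edges of the rule were as follows. The 5 pair sites nearest to a start site lay 1003 to 1018 bp away, and the 5 regions just excluded 986 to 1000 bp. The nearest B2B Jun-family peaks were 1004 to 1038 bp from the sites just inside and 976 to 998 bp from those just outside. An A549 JunD peak lay within 1 kb of 50 pair sites, the nearest 5 at 51 to 191 bp. The weaker peak of the pair had a −log10 q of 2.29 at the lowest, and under 5 at 6.42% of the sites. On the other side, the 6 trio sites with the weakest JunD peaks had JunD −log10 q values of 2.08 to 2.74 at 11 to 16 reads. They lay near ANKRD46, AGBL1, ANXA8L1, DNAJC12, RALGAPA2 and SMCHD1. The 3 of them on chromosomes 1 to 12 all had A549 H3K27ac, Med1 and pol II.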

How the data were processed

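ChIP-seq libraries of 36 samples (2 replicates of each target, and input chromatin) were sequenced. Per the labels and the study's methods, reads were aligned by the authors to hg38 (Bowtie2 2.4.4) and cleared of duplicates with in-house code. Replicates were then merged and scaled (SAMtools 1.13), and peaks were called (MACS2 2.2.7.1). The caller's options and control were not given in the sources used here. The deposited narrowPeak lists give a score per peak, the fold enrichment at the summit (a ratio to the caller's local background) and −log10 of the p-value and q-value, all from the authors.

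From these, peaks were merged where they overlapped by 1 bp or touched, and distances were taken to GENCODE 44 start sites, in Python 3.11.15 with NumPy 2.4.6, SciPy 1.17.1 and pysam 0.24.0. The pileup was solved from fold enrichment and p-value (whole reads within 0.001 in −log10 p for 99.976% of 29205 peaks). The lists of A549 H3K27ac, A549 Med1, B2B Med1 and A549 pol II end on chromosomes 13, 15, 15 and 20, so H3K27ac, Med1 and pol II were compared on chromosomes 1 to 12. Shares have Wilson intervals, differences Newcombe or paired ones, at 95%, and a difference was called if its interval left out 0. Standardised differences weight 4 quartile strata by the pair sites. The functions were tested on simulated data. Genes named are those nearest to the 10 strongest pair sites, the 10 strongest with H3K27ac and Med1 and the 6 trio sites with the weakest JunD, the 10 genes with most pair sites (with a tie), and the first 3 of each list. The pair sites, comparisons and gene lists were chosen with earlier results of these data known. Of the oncogene list, 7 symbols were not matched. Input samples were not analysed here.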

Additional observations from a re-analysis of the deposited data

Results flagged for a closer look

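In percentage points, the gap between A549 and B2B was wider at trio sites than at pair sites for each of the 4 marks. It was flagged by the interval of the difference between the gaps, which covers counting error over sites only. The B2B shares were low in both sets, so the contrast largely repeats the lower A549 shares at pair sites given above. Both sets were chosen by A549 and B2B Jun-family peaks, so the gaps remain a description. The ratio of the A549 to the B2B share was not tested. For H3K27ac the gap was 25.2 points at trio and 12.4 points at pair sites, 12.8 points apart (9.22 to 16.4). For Med1 it was 37.9 against 11.6 points, 26.2 points apart (22.3 to 30.2). For pol II it was 59.04 against 29.6 points, 29.4 points apart (25.3 to 33.6). For H3K4me3 it was 30.6 against 13.4 points, 17.1 points apart (14.0 to 20.3).

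Outside the assembled chromosomes, which no comparison used, the A549 Jun-family lists formed 490 merged regions on unplaced sequences. Of these 56 held JunB and Jun without JunD, or 11.4%, against 13373 of 43827 regions (30.5%) on the assembled chromosomes. They are listed because no comparison used them.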

How the results depend on the processing

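Of 199 repeats of the 20 results under other settings, 194 kept the direction and the side of the threshold. The exceptions all concern H3K27ac at pair sites against JunB-alone sites, 1.38 points with an interval that includes 0. That difference was 4.11 points with Jun-family peaks at a −log10 q of at least 5 and 5.45 points with marks counted within 1 kb, both past the threshold. It was −0.445 points with no B2B peak within 5 kb, −1.61 points without bins that lack a start site and −1.85 points with marks within 100 bp of the summit, with intervals that include 0. The cause was not tested. Other settings moved called differences by over 1.5 times without ending the call. Against JunB-alone sites these were Med1 at −11.7 and H3K4me3 at 2.83 points with no B2B peak within 5 kb, H3K4me3 at 2.35 points at the summit, and pol II at 4.29 points within 1 kb. The A549 gap over B2B in H3K27ac was 21.1 points within 1 kb, and standardised over Jun strength CTCF and Rad21 differed from trio sites by −19.7 and −21.8 points (−11.6 and −14.5 without the second quartile). The number of pair sites ran from 3168 to 3797. No paired analysis was possible because the authors merged the replicates before calling peaks, and for the same reason no replicate could be left out. The depth of the libraries was not given, and its part in the absence of JunD peaks was not tested.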

Other observations

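The bases on both sides of the AP-1 element were counted in each set. Of 2328 copies in pair windows, read as TGACTCA, 50.6% had a purine before and a pyrimidine after it (48.5 to 52.6). The share was 45.4% at trio sites (41.2 to 49.7), 60.5% at JunB-alone sites (57.4 to 63.5) and 42.1% at Jun-alone sites (40.1 to 44.2). The differences between the sets were not tested.

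Runs of at least 8 TG dinucleotides on either strand were counted after a window near RERG, in one of the strongest pair sites, was seen to hold one. Such runs lay in 34 pair windows, or 0.895% (0.641 to 1.25), against 0.250% of their flanks, and in 0.852% of trio windows. Of the 34 windows, 15 also held the AP-1 element.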
